A study of Mus musculus with 21 samples.

Results

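The 8 libraries of MCC950-treated mice were compared with the 7 libraries of saline-treated mice, 15 of the 21 libraries of the series, across all genes, with emphasis on tubule transport and metabolism. The members were taken by the treatment named in the sample titles. All mice were male, wildtype C57BL/6J, and both groups were 19.5 months old when the kidneys were taken. From 18 months of age they had received either 10 mg/kg MCC950, an inhibitor of the NLRP3 inflammasome, in saline or saline alone, by intraperitoneal injection 2 times a week for 6 weeks. Another 6 libraries came from untreated mice of 4 months and served here only for the shared estimate of the spread and for values set beside the treatment contrast. Each library was made from the podocyte fraction of 1 mouse: kidney cortex, with the medulla removed, was digested, and cells bound by antibodies to nephrin were collected with magnetic beads. The comparison asks which transcripts differ in this fraction after NLRP3 inhibition in middle age. The labels name no batch, day or hour of collection, so group and order of processing cannot be told apart.

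The proximal tubule takes back most of the filtered glucose, phosphate, amino acids and protein, and it runs on mitochondrial oxidation of fatty acids, lactate and amino acids. Its early, convoluted part (segments S1 and S2) carries the bulk of reabsorption, and its straight part (S3) secretes organic anions and handles xenobiotics. The thick ascending limb, distal convoluted tubule and collecting duct follow it and adjust salt, calcium, magnesium and water. Podocytes are the epithelial cells on the urinary side of the glomerular filter and are held together by nephrin and other proteins of the slit diaphragm.

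The podocyte label was checked against marker lists. All 17 podocyte markers passed the filter on low counts, and so did all 18 proximal tubule, 14 distal nephron, 15 endothelial, 15 macrophage and myeloid and 16 B and plasma cell markers. Summed over the 18 proximal tubule markers, the level was between 2856 and 7014 CPM (counts per 1e6 counts, scaled by the trimmed mean of M values, TMM) in the saline libraries, with a median of 4701. In the MCC950 libraries it was between 4592 and 12983 CPM, with a median of 8446, and 6 of 8 MCC950 libraries exceeded all saline ones. The summed podocyte markers ranged from 539 to 817 CPM after saline and from 679 to 979 CPM after MCC950, so those groups overlapped, and *Nphs1*, which encodes the nephrin used for the isolation, ranged between 1.56 and 9.48 CPM (median 6.48) and between 7.46 and 23.6 CPM (median 11.7) (log2 fold change 1.18, standard error 0.32, adjusted p = 0.0172). The distal nephron markers summed to between 3469 and 5155 CPM after saline and between 2578 and 4486 CPM after MCC950. In every library the summed markers of each tubule list thus exceeded those of podocytes. The label therefore does not stand for podocytes alone, although sums over different genes do not give cell shares. In bulk RNA, fewer cells of a type and less RNA per cell cannot be told apart. The proximal tubule level therefore moved with the treatment groups, and its part in the results below was not tested beyond the values with the proximal tubule score as a covariate.

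**Figure D1:**
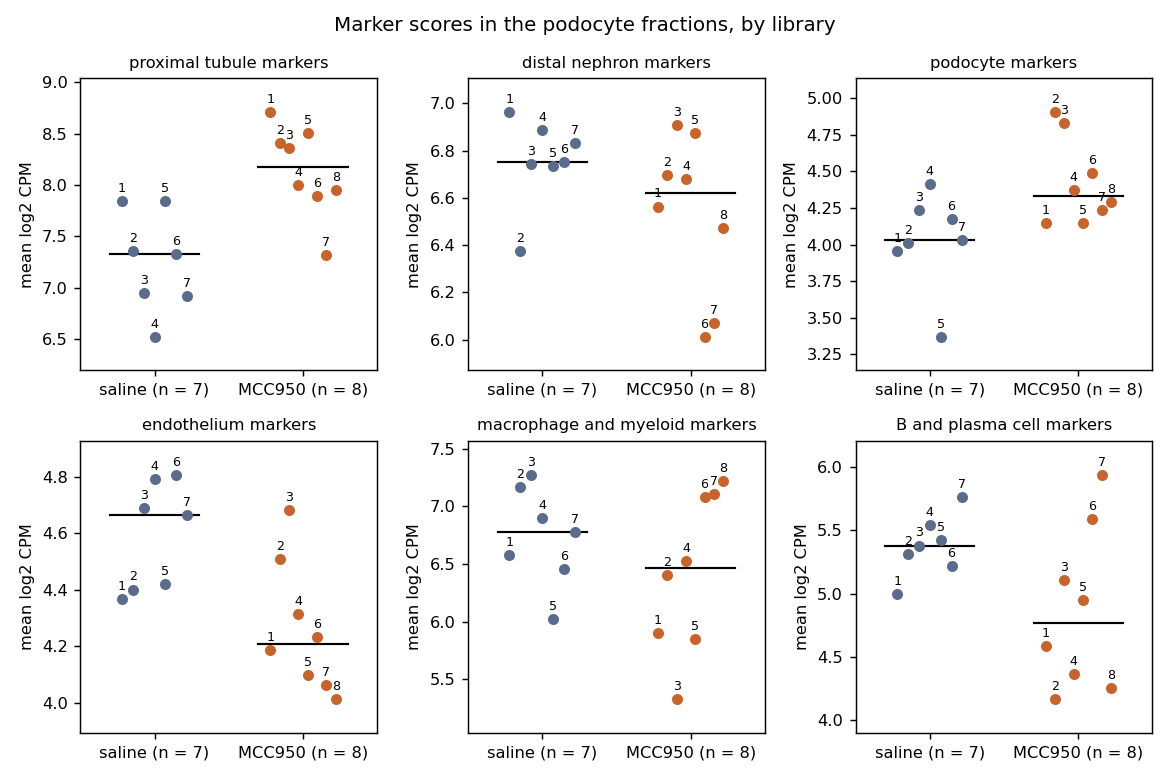
Mean log2 CPM of each marker list (y axis) in each saline and MCC950 library (points, numbered by replicate), with the group median as a line. The proximal tubule score lay above the highest saline library in 7 of 8 MCC950 libraries, MCC950 replicate 7 being the exception, while the podocyte score was above the highest saline library in 3 of 8.

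The libraries of the MCC950 group were not alike. MCC950 replicates 6 and 7 had 10664 and 12933 CPM over the 16 B and plasma cell markers, above the saline range of 7711 to 10660 CPM, while the other 6 MCC950 libraries lay between 1795 and 4811 CPM, below every saline library. By the mean log2 CPM of these markers, 1 of 8 MCC950 libraries (replicate 7) was above every saline library and 5 were below. MCC950 replicates 3 and 6 then lay within the saline range. The macrophage and myeloid markers ranged from 1811 to 4364 CPM after saline and from 1172 to 4343 CPM after MCC950. The marker calls that follow stand beside 11.9% of all genes tested called higher and 4.86% called lower. Of the 15 endothelial markers 7 were lower, of the 14 distal nephron markers 2 (1 without MCC950 replicate 3, 4 or 8, and 4 with scaling by the counts outside the mitochondrial genes), and of the macrophage and myeloid markers 0 (edgeR; also 0 at an unadjusted p under 0.05 and with DESeq2). Of the 16 markers each of B and plasma cells and of T and NK cells 1 was lower, *Sdc1* (-0.65 ± 0.16) and *Il7r*, near the share of all genes. Of the former 4 were lower without MCC950 replicate 7. The call of the latter was lost without MCC950 replicate 1, 2, 3 or 4 or saline replicate 5 or 7, and 2 were lower without MCC950 replicate 6 or 7. Mesangial and red blood cell markers had 0 calls of 13 and of 5 (edgeR; 4 and 0 at an unadjusted p under 0.05, 3 and 0 with DESeq2). Among the podocyte markers 5 were higher, the actin crosslinker *Actn4* (0.28 ± 0.08) among them, and 1 was lower (0 without MCC950 replicate 8), with 3 and 2 higher without MCC950 replicate 3 and saline replicate 7. Total counts were between 45772937 and 84876399 in the saline group and between 35440472 and 58247271 in the MCC950 group (p = 0.0124 by exact permutation of the libraries, two-sided, adjusted over 5 such tests p = 0.0207). Counts outside the mitochondrial genes were between 14362648 and 27818925 after saline and between 16118731 and 28569185 after MCC950 (p = 0.538 by the same exact test, adjusted p = 0.538).

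Of 16377 genes tested with edgeR's quasi-likelihood test, 1957 (11.9%) were higher and 796 (4.86%) lower with MCC950 at an adjusted p under 0.05, and 964 and 391 of these were also called in each of the 15 fits that left out 1 library. The median log2 fold change over all genes was 0.00, with a lower tail to -0.58 and an upper tail to 0.69 at the percentiles 5 and 95. In 285 genes (1.74%) the saline and MCC950 libraries did not overlap. The number of genes called rested on single saline libraries: without saline replicate 4, which had the lowest proximal tubule score, 1008 genes were higher and 515 lower, and without saline replicates 3, 6 and 7 in turn 1149, 1297 and 1287 were higher. Without both MCC950 replicates 6 and 7, a setting chosen after seeing the data, 2148 were higher and 2175 lower. The split also moved with the scaling: 1283 were higher and 1271 lower with upper quartile scaling, which moved the median of all genes to -0.05, and 1027 were higher and 1817 lower with scaling by the counts outside the mitochondrial genes, which moved it to -0.09. Among the gene lists other than cell type markers, 25 had members higher and 0 lower in the edgeR fit, and of their 785 entries 14 were lower at an unadjusted p under 0.05 and 4 with DESeq2. Members named below only to complete a count of 5 or fewer are given without values and were chosen after their values were seen.

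The 10 largest rises among genes whose groups did not overlap began with *Serpina1f*. This gene, a member of the alpha-1-antitrypsin family, rose from a range between 0.309 and 2.60 CPM (median 1.38) to one between 5.75 and 18.1 CPM (median 7.005) (log2 fold change 2.73, standard error 0.36, adjusted p = 3.65e-04). *Mettl7a2*, a methyltransferase-like protein of lipid droplets and endoplasmic reticulum, was between 1.45 and 3.71 CPM (median 1.998) after saline and between 4.89 and 11.7 CPM (median 7.03) after MCC950 (log2 fold change 1.81, standard error 0.23, adjusted p = 3.24e-04). Every MCC950 library exceeded every saline library for both genes. *Acnat2*, a peroxisomal acyltransferase for fatty acids and amino acids, was between 3.44 and 15.1 CPM (median 8.24) after saline and between 19.4 and 41.3 CPM (median 25.2) after MCC950 (log2 fold change 1.73, standard error 0.28, adjusted p = 0.00116). *Slc10a2*, the apical sodium-dependent bile acid transporter, was between 0.684 and 1.59 CPM (median 0.897) after saline and between 1.79 and 4.64 CPM (median 3.06) after MCC950 (log2 fold change 1.69, standard error 0.28, adjusted p = 0.00123). Both groups lay apart in each case, at a low level for *Slc10a2*. The others of the 10 largest were *D630023F18Rik* (1.81 ± 0.23, fold change and standard error on the log2 scale), *Cyp2d12* (1.48 ± 0.25), *Slc5a2* (1.46 ± 0.21), the secreted phosphoprotein *Spp2* (1.40 ± 0.23), *Osgin1*, an oxidative stress-induced growth inhibitor (1.39 ± 0.22), and the membrane-bound transcription factor *Myrf* (1.38 ± 0.19). *Serpina1f*, *Mettl7a2*, *Acnat2* and *Cyp2d12* have near-identical paralogs among which reads could have been split, so their values are uncertain. On mm10, *Serpina1f* lies on chromosome 12 from 103688044 to 103695529, *Slc10a2* on chromosome 8 from 5083219 to 5105287 and *Slc5a2* on chromosome 7 from 128265683 to 128272430.

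**Figure D2:**
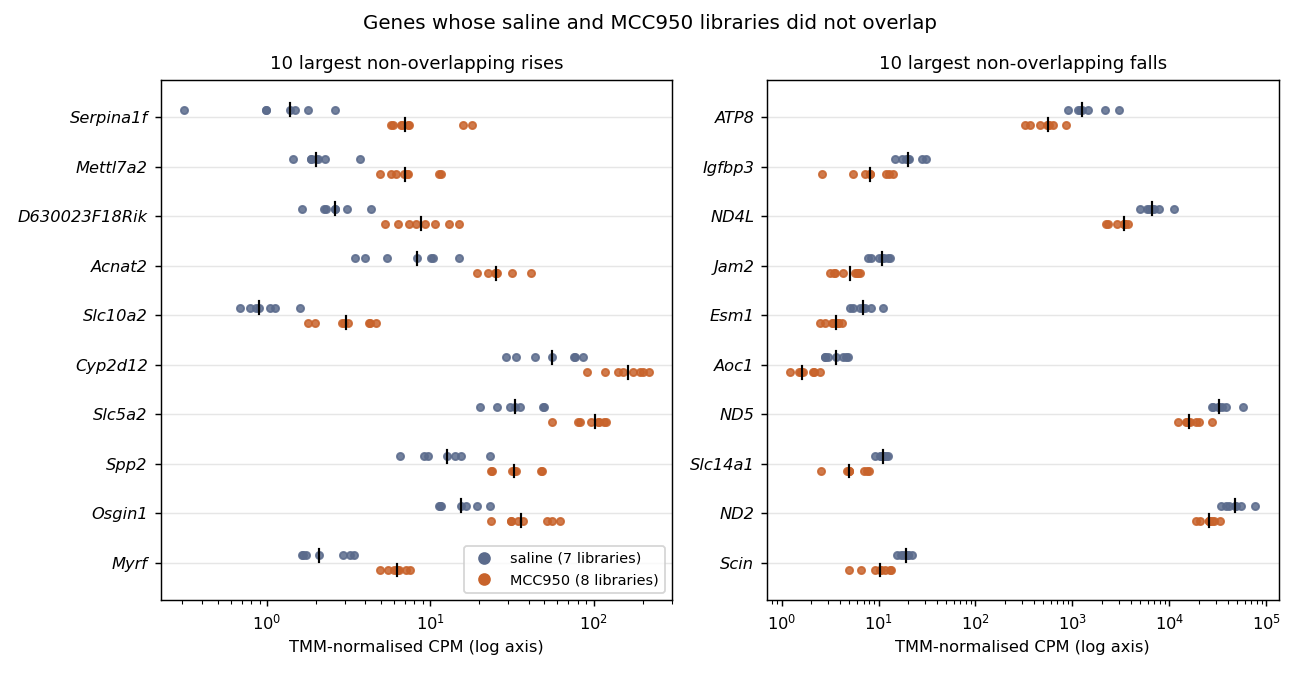
TMM-normalised CPM (x axis, log scale) of the 10 largest rises (left) and 10 largest falls (right) among called genes without overlap, with 1 point per library and the group median as a tick. In each row the 7 saline and 8 MCC950 libraries form separate ranges, from medians of 1.38 and 7.005 CPM in Serpina1f to medians of 19.3 and 10.5 CPM in Scin.

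Genes of the early proximal tubule rose together. Of the 11 S1 genes 8 were higher and 0 lower, all 8 in each fit with a library left out, with a median log2 fold change of 0.92. *Slc5a2*, the sodium-glucose cotransporter SGLT2 that takes up most filtered glucose, ranged between 20.01 and 49.5 CPM (median 32.8) after saline and between 55.4 and 119 CPM (median 102) after MCC950 (log2 fold change 1.46, standard error 0.21, adjusted p = 5.41e-04). *Gatm*, the mitochondrial enzyme that makes the creatine precursor guanidinoacetate, ranged between 67.9 and 125 CPM (median 101.5) and between 156 and 240.5 CPM (median 211) (log2 fold change 1.07, standard error 0.14, adjusted p = 3.65e-04). No MCC950 library overlapped a saline library for either gene. Of the 11 S3 genes 6 were higher and 0 lower, 4 in each leave-one-out fit, with a median of 0.95, but their leading members were low: *Slc22a13*, an organic anion and urate transporter, ranged between 0.155 and 2.28 CPM (median 0.955) and between 2.10 and 9.17 CPM (median 2.94) (log2 fold change 2.00, standard error 0.43, adjusted p = 0.00590), and *Cyp7b1*, an oxysterol hydroxylase, between 1.59 and 3.13 CPM (median 2.54) and between 2.95 and 11.3 CPM (median 6.78) (log2 fold change 1.54, standard error 0.23, adjusted p = 7.21e-04). *Slc6a18*, a transporter of neutral amino acids in the late proximal tubule, was higher in the MCC950 libraries (1.02 ± 0.25, adjusted p = 0.0105). Of 18 proximal tubule markers 11 were higher and 0 lower, 8 in each such fit, with a median of 0.92.

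Some sodium-coupled carriers of glucose and phosphate were higher, and the sodium-proton exchanger was not called. Of 13 glucose, phosphate and sulfate transporters 5 were higher (3 without saline replicate 4 or 7, and 8 without saline replicate 5) and 0 lower, with a median of 0.57, the sulfate carrier *Slc26a1* and the glucose-6-phosphate carrier *Slc37a4* among them. *Slc34a1*, the main sodium-phosphate cotransporter of the brush border, ranged between 500.4 and 1230.0 CPM (median 789) after saline and between 911 and 2151 CPM (median 1724) after MCC950 (log2 fold change 0.99, standard error 0.23, adjusted p = 0.00955), with 7 of 8 MCC950 libraries above every saline library. *Slc34a3*, its paralog with the same substrate, ranged between 3.87 and 11.1 CPM (median 5.58) and between 10.5 and 24.3 CPM (median 17.3) (log2 fold change 1.47, standard error 0.25, adjusted p = 0.00136). In the list of sodium, proton, bicarbonate and water handling 9 of 22 were higher, 7 in each leave-one-out fit, and 0 lower (median 0.49). It included the scaffold *Pdzk1*, which holds apical transporters in place and did not overlap (log2 fold change 1.17, standard error 0.21, adjusted p = 0.00183), the basolateral sodium-bicarbonate cotransporter *Slc4a4* (0.92 ± 0.24) and the paracellular cation channel *Cldn2* (0.85 ± 0.23). *Slc9a3*, the apical sodium-proton exchanger NHE3, had a log2 fold change of -0.13 ± 0.24 (adjusted p = 0.756).

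Part of the carriers of amino acids, carboxylates and organic ions were higher, with fewer calls once single saline libraries were left out. Of 20 amino acid and peptide transporters 12 were higher and 0 lower (median 0.72), and 7, 6 and 7 were higher without saline replicates 3, 4 and 7. *Slc6a13*, a transporter of GABA and taurine, ranged between 4.16 and 10.2 CPM (median 6.89) and between 10.2 and 19.1 CPM (median 13.6) (log2 fold change 0.94, standard error 0.22, adjusted p = 0.00899), and *Slc7a7*, the light chain of the basolateral exporter of cationic amino acids, had 0.70 ± 0.18. *Slc6a19*, the main apical carrier of neutral amino acids, had a log2 fold change of 0.83 ± 0.33 but did not pass the test (adjusted p = 0.0900), its highest saline value being in replicate 5. Of 18 carboxylate, nucleoside and vitamin transporters 11 were higher (6 without saline replicate 4) and 0 lower (median 0.76), led by the monocarboxylate transporter *Slc16a1*, whose groups did not overlap (between 5.78 and 11.5 CPM (median 7.74) and between 11.9 and 26.1 CPM (median 18.8), log2 fold change 1.26, standard error 0.16, adjusted p = 3.24e-04). The sodium-coupled sugar carrier *Slc5a9* (1.01 ± 0.23) and the lactate carrier *Slc5a12* (1.01 ± 0.28) were also called. *Slc13a3*, a basolateral dicarboxylate carrier, was not (0.54 ± 0.25, adjusted p = 0.147). Of 38 organic ion transporters 16 were higher and 1, *Slc2a9*, lower (0 without MCC950 replicate 4 or saline replicate 5; median 0.65), with 9 higher without saline replicate 3, 4 or 7 and 10 without MCC950 replicate 1. *Slc22a28* rose (1.15 ± 0.27), while *Slc22a6*, the organic anion transporter OAT1, had 0.53 ± 0.28 (adjusted p = 0.201).

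Brush border enzymes and genes of protein uptake were higher too, with calls that varied with single libraries. Of 18 brush border enzymes 13 were higher and 0 lower (median 0.80), and 8 were higher without MCC950 replicate 1 or saline replicate 3, 4 or 7. *Dpep1*, a dipeptidase that splits leukotriene and glutathione products, ranged between 6.36 and 15.9 CPM (median 11.8) and between 12.5 and 34.5 CPM (median 25.6) (log2 fold change 1.05, standard error 0.22, adjusted p = 0.00473). The microvillar protocadherin *Cdhr2* (1.36 ± 0.28) and the meprin subunit *Mep1b* (1.54 ± 0.35) rose in every such fit. *Ggt1*, the gamma-glutamyltransferase of the brush border, gave a value of 0.73 ± 0.25 (adjusted p = 0.0470), and was called in 4 of 15 leave-one-out fits (adjusted p = 0.117 without saline replicate 4). Of 16 genes of receptor-mediated endocytosis 7 were higher and 0 lower (median 0.22), with 3 higher without saline replicate 3, 4, 6 or 7 and 4 without MCC950 replicate 1 or saline replicate 2. Both other scalings gave 3 higher and 1 lower. *Lrp2*, which encodes megalin, the receptor for filtered protein, ranged between 92.4 and 266 CPM (median 159) and between 183 and 472 CPM (median 328) (log2 fold change 0.97, standard error 0.26, adjusted p = 0.0160), and *Amn*, the membrane partner of cubilin, between 3.07 and 12.2 CPM (median 7.03) and between 10.2 and 24.8 CPM (median 18.7) (log2 fold change 1.23, standard error 0.27, adjusted p = 0.00602). The MCC950 libraries of both genes reached into the saline range. *Rab11fip3*, an effector of recycling endosomes, had 0.81 ± 0.18.

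The list of amino acid catabolism formed one of the broadest groups. It also held enzymes of other substrates, such as *Miox*, which is itself a proximal tubule marker here. Of 62 tested 37 were higher and 0 lower, 25 in each leave-one-out fit, with a median log2 fold change of 0.66. *Prodh2*, which oxidises hydroxyproline, ranged between 3.94 and 14.2 CPM (median 8.44) and between 12.1 and 28.1 CPM (median 20.5) (log2 fold change 1.31, standard error 0.24, adjusted p = 0.00267). *Miox*, the tubule enzyme that opens the inositol ring, ranged between 54.9 and 164 CPM (median 97.4) and between 119 and 303 CPM (median 257) (log2 fold change 1.24, standard error 0.24, adjusted p = 0.00313), and *Ddc*, which makes dopamine from L-DOPA, between 2.63 and 10.7 CPM (median 6.02) and between 8.45 and 20.6 CPM (median 15.8) (log2 fold change 1.22, standard error 0.24, adjusted p = 0.00397). For each of these 3 genes 7 of 8 MCC950 libraries were above the saline range. *Ass1*, the argininosuccinate synthase that supplies arginine, did not pass the test (0.63 ± 0.30, adjusted p = 0.153) unless saline replicate 5 was left out (0.92, adjusted p = 0.0308).

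Genes of gluconeogenesis, which in the kidney takes place in the proximal tubule, and some of those of glycolysis were higher. Of 17 genes of gluconeogenesis and fructose metabolism 11 were higher and 0 lower, 10 in each leave-one-out fit, with a median of 0.86. *Pck1*, the cytosolic phosphoenolpyruvate carboxykinase that commits to glucose synthesis, ranged between 72.3 and 272 CPM (median 179) and between 208 and 588 CPM (median 328) (log2 fold change 1.19, standard error 0.29, adjusted p = 0.0117). *Fbp1*, fructose-1,6-bisphosphatase, ranged between 59.3 and 174 CPM (median 112) and between 130.2 and 301 CPM (median 215) (log2 fold change 0.98, standard error 0.25, adjusted p = 0.0130). *G6pc*, the phosphatase that releases free glucose, ranged between 41.4 and 108 CPM (median 68.8) and between 56.8 and 201 CPM (median 143) (log2 fold change 0.99, standard error 0.26, adjusted p = 0.0143), with 7 of 8 MCC950 libraries above the saline range. Of 19 glycolytic genes 8 were higher and 0 lower, 6 in each such fit, around a median of 0.15. They included *Pklr* (0.95 ± 0.24), the pyruvate kinase form of the proximal tubule and liver, *Ldha*, lactate dehydrogenase, which did not overlap (between 75.9 and 122 CPM (median 96.5) and between 122 and 167 CPM (median 138), log2 fold change 0.52, standard error 0.10, adjusted p = 0.00358), and *Tpi1* (0.51 ± 0.12). *Pkm*, the pyruvate kinase form of most other cells, had a log2 fold change of 0.05 ± 0.06 (adjusted p = 0.644).

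**Figure D3:**
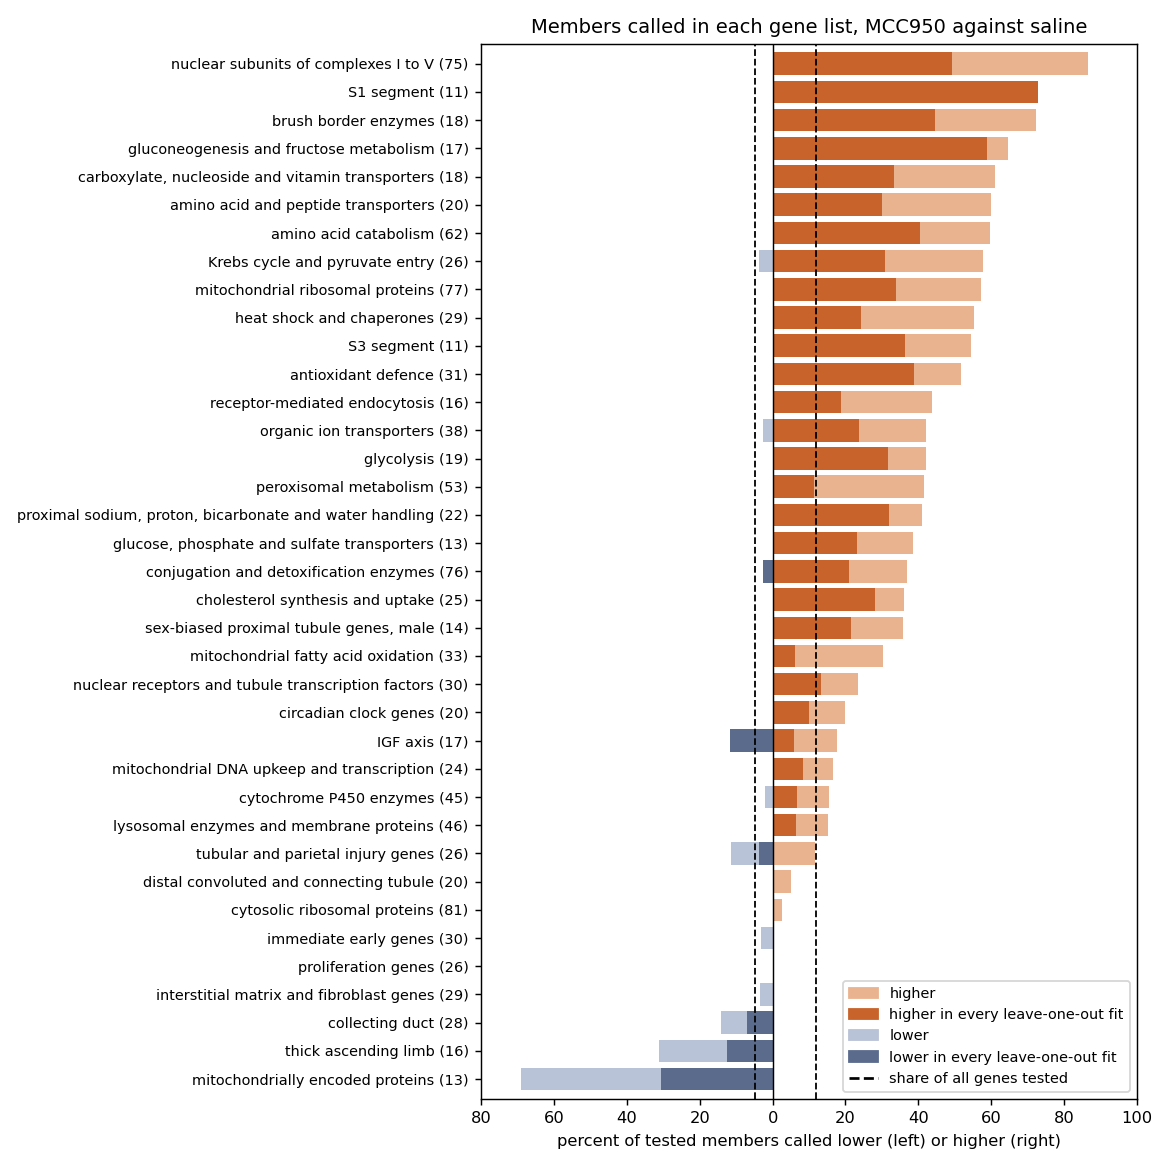
Percent of the tested members of each list (number in brackets) called lower (left) or higher (right) with MCC950, with the darker part called in every fit that left out 1 library. The dashed lines mark 4.86% and 11.9%, the shares of all genes tested. The bars of the nuclear respiratory chain subunits (65 of 75 higher) and of the mitochondrially encoded proteins (9 of 13 lower) point in opposite directions.

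Calls in fatty acid oxidation depended on single libraries. Of 33 mitochondrial genes of this pathway 10 were higher and 0 lower (median 0.41), but the number was between 2 without saline replicate 4 and 18 without MCC950 replicate 7, and 3 without MCC950 replicate 1 or 5 or saline replicate 3 or 7. It was 5 without MCC950 replicate 3 or saline replicate 2 or 6, 6 without MCC950 replicate 2, 17 without saline replicate 5 and 5 under both other scalings. *Acsm1*, a medium-chain acyl-CoA synthetase, was called in each fit (between 5.76 and 12.1 CPM (median 7.45) and between 10.6 and 27.99 CPM (median 21.5), log2 fold change 1.25, standard error 0.24, adjusted p = 0.00326), as was the thioesterase *Acot13* (0.57 ± 0.14). *Cpt1a*, the carnitine palmitoyltransferase that admits fatty acids to mitochondria, had -0.17 ± 0.17 (adjusted p = 0.515). Of 53 peroxisomal genes 22 were higher and 0 lower (median 0.40), with 6 called in each leave-one-out fit, and 9 were higher with scaling by the counts outside the mitochondrial genes and 12 with upper quartile scaling. Single omissions left 6 and 8 called without saline replicates 4 and 3, 9 and 10 without MCC950 replicates 1 and 5, 10, 11 and 12 without saline replicates 6, 7 and 2, and 14 without MCC950 replicate 2 or 4. *Acnat1* (1.27 ± 0.27) and the thioesterase *Acot4* (1.00 ± 0.28) were among them.

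Many nuclear genes of the respiratory chain were higher, and part of the mitochondrial ones were lower. Of 75 nuclear subunits of complexes I to V 65 were higher and 0 lower, and the log2 fold changes ran from 0.20 to 0.82 around a median of 0.41. The number higher was 37 without saline replicate 4, 41 without saline replicate 3 and 42 without MCC950 replicate 1. It was 35 with scaling by the counts outside the mitochondrial genes and 45 with upper quartile scaling. By complex, 33 of 37 nuclear genes were higher in complex I (median 0.41), 2 of 3 in complex II (0.39), 8 of 8 in complex III (0.41), 9 of 10 in complex IV (0.40) and 13 of 17 in complex V (0.39). *Ndufab1*, the acyl carrier protein of complex I, ranged between 2.45 and 5.52 CPM (median 4.34) and between 3.72 and 9.72 CPM (median 7.77) (log2 fold change 0.82, standard error 0.20, adjusted p = 0.0106). The small complex I subunit *Ndufb2* (0.69 ± 0.15) and *Cox5a* of cytochrome c oxidase (0.66 ± 0.17) kept the call in each fit, while *Ndufs1*, the largest subunit of complex I (log2 fold change 0.37, standard error 0.12, adjusted p = 0.0383), was called in 5 of 15 (adjusted p = 0.0984 without saline replicate 4).

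All 13 genes for proteins encoded in the mitochondrial genome had lower values, from -1.56 to -0.60 on the log2 scale around a median of -0.79, and 9 were called lower, 4 of them in each leave-one-out fit. By complex, the calls were 6 of 7 genes in complex I, 0 of 1 in complex III, 1 of 3 in complex IV and 2 of 2 in complex V, while complex II has no mitochondrial gene. Under both other scalings 12 of the 13 were lower. The number lower was 4 without MCC950 replicate 5 or saline replicate 7 and 5 without MCC950 replicate 4. In 5 of 13 genes the groups did not overlap, against 1.74% of all genes tested. *ND5*, a core subunit of complex I, ranged between 27786 and 57967 CPM (median 32753) and between 12367 and 27259 CPM (median 16077) (log2 fold change -1.04, standard error 0.24, adjusted p = 0.00897), and *ND2*, another core subunit, between 33948 and 76900.3 CPM (median 48097) and between 18975 and 32954 CPM (median 25762) (log2 fold change -0.93, standard error 0.24, adjusted p = 0.0148). *ATP8*, a small subunit of ATP synthase, fell furthest (between 891 and 3021 CPM (median 1261) and between 321 and 863 CPM (median 555), log2 fold change -1.56, standard error 0.27, adjusted p = 0.00176), followed by the complex I subunit *ND4L* (log2 fold change -1.19, standard error 0.22, adjusted p = 0.00237). *ATP8* and *ND4L* overlap the start of ATP6 and ND4 on the same strand, so reads across the shared bases cannot be assigned to 1 gene. *ND1* did not overlap between groups (log2 fold change -0.85, standard error 0.26, adjusted p = 0.0288) but lost the call without MCC950 replicate 4 or 5 or saline replicate 7 (highest adjusted p = 0.0595), and *COX1* was not called (log2 fold change -0.80, standard error 0.29, adjusted p = 0.0603). As a share of all counts, the mitochondrial genes took a mean of 69.6% (SD 5.32, n = 7) in the saline group against 56.4% (SD 4.46, n = 8) in the MCC950 group, with p = 0.000622 by exact permutation of the libraries and 0.00155 after adjustment over 5 tests. Both mitochondrial ribosomal RNAs together moved the other way as a share of counts, from a mean of 0.511% (SD 0.100, n = 7) to one of 0.720% (SD 0.170, n = 8; p = 0.0186 by the same exact test, adjusted p = 0.0233), and neither was called in the edgeR fit (log2 fold changes between 0.01 and 0.04).

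**Figure D4:**
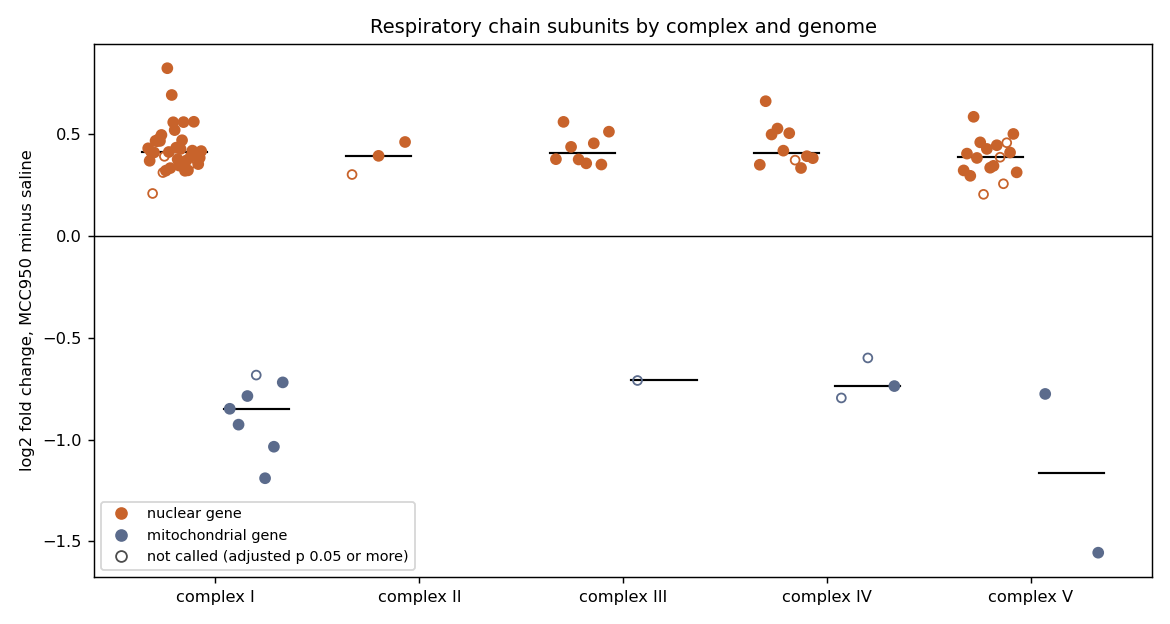
Log2 fold change, MCC950 minus saline (y axis), of each tested subunit of complexes I to V, split by the genome that encodes it, with open points for genes not called and lines for medians. All nuclear genes lie between 0.20 and 0.82, and all mitochondrial genes between -1.56 and -0.60.

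The other nuclear genes of mitochondria were higher in part. Of 77 mitochondrial ribosomal proteins 44 were higher and 0 lower (median 0.30), with 26 and 27 higher without saline replicates 3 and 4, 23 with scaling by the counts outside the mitochondrial genes and 30 with upper quartile scaling. *Mrps21* did not overlap (between 6.91 and 9.93 CPM (median 9.09) and between 10.6 and 17.5 CPM (median 13.7), log2 fold change 0.65, standard error 0.11, adjusted p = 0.00172), and *Mrpl34* (0.59 ± 0.13) and *Mrpl12* (0.58 ± 0.13) were called in each fit. Of 26 genes of the Krebs cycle and pyruvate entry 15 were higher (9 without saline replicate 3 and 8 without replicate 4) and 1, *Pdp1*, lower (median 0.35). Scaling by the counts outside the mitochondrial genes gave 7 higher and 2 lower, and upper quartile scaling 12 and 2. The lower call was lost without saline replicate 4, and 2 were lower without MCC950 replicate 2 or saline replicate 1, 2, 6 or 7. *Mdh2*, the mitochondrial malate dehydrogenase, ranged between 61.2 and 81.9 CPM (median 71.3) and between 77.1 and 113 CPM (median 100.2) (log2 fold change 0.45, standard error 0.09, adjusted p = 0.00391), and the pyruvate carrier subunit *Mpc2* (0.64 ± 0.16) and the phosphatase *Pdp2*, which activates pyruvate dehydrogenase (0.75 ± 0.13), rose too. Citrate synthase, *Cs*, did not pass the test (0.21 ± 0.08, adjusted p = 0.0744). Of 24 genes that maintain and transcribe mitochondrial DNA 4 were higher, near the share of all genes, and 0 lower, 2 without MCC950 replicate 1 or 5 or saline replicate 3, 4 or 7, around a median of 0.06 that was -0.04 with scaling by the counts outside the mitochondrial genes, where 2 were higher and 2 lower. Upper quartile scaling gave 2 and 0. These were the helicase *Twnk*, the RNase P subunit *Hsd17b10*, the mitochondrial topoisomerase *Top1mt*, without overlap (between 3.38 and 5.09 CPM (median 4.13) and between 5.17 and 8.66 CPM (median 8.06), log2 fold change 0.82, standard error 0.13, adjusted p = 0.00112), and the mitochondrial mRNA-binding protein *Lrpprc* (0.39 ± 0.10), while *Tfam*, which packages the mitochondrial genome, had 0.05 ± 0.08 (adjusted p = 0.695).

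Detoxifying and antioxidant enzymes of the tubule were higher in part. Of 76 conjugation and detoxification enzymes 28 were higher and 2, *Ephx1* and *Ugt1a6a*, lower (median 0.63), and 16 were higher without saline replicate 3 or 4 and 17 without MCC950 replicate 1 or saline replicate 7. *Ugt2b34*, a glucuronosyltransferase, did not overlap (between 1.90 and 5.40 CPM (median 3.09) and between 5.53 and 10.8 CPM (median 8.27), log2 fold change 1.33, standard error 0.23, adjusted p = 0.00149), and the sulfotransferase *Sult1d1* (1.07 ± 0.19) and glutathione transferase *Gsta2* (1.38 ± 0.33) were called in each fit. *Ugt3a1* was not called (0.70 ± 0.29, adjusted p = 0.0960) except without saline replicate 5 (0.97, adjusted p = 0.0200). Of 45 cytochrome P450 genes 7 were higher, a share near the 11.9% of all genes, and 1, *Cyp39a1*, lower (median 0.32), with 3 higher without MCC950 replicate 1 or 5 or saline replicate 3, 4 or 7, 4 without MCC950 replicate 2 or saline replicate 2 or 6, and 11 without saline replicate 5. The single lower call was lost without MCC950 replicate 1, 7 or 8 or saline replicate 4 or 5, and 2 were lower without MCC950 replicate 6 or saline replicate 1. Scaling by the counts outside the mitochondrial genes gave 3 higher and 4 lower, and upper quartile scaling 4 and 2. *Cyp2d12* ranged between 28.97 and 85.5 CPM (median 55.98) and between 90.5 and 217 CPM (median 163) (log2 fold change 1.48, standard error 0.25, adjusted p = 0.00136), and *Cyp2e1*, the ethanol-oxidising form, had 0.61 ± 0.27 (adjusted p = 0.126; without saline replicate 5, 0.82 and 0.0365). Of 31 antioxidant genes 16 were higher and 0 lower, 12 in each leave-one-out fit (median 0.35). *Gpx3*, the plasma glutathione peroxidase that the proximal tubule secretes, was among the most abundant nuclear transcripts named here (between 2246 and 8156 CPM (median 4575) and between 7139 and 13947 CPM (median 9020.1), log2 fold change 1.07, standard error 0.24, adjusted p = 0.00745), and 7 of 8 MCC950 libraries exceeded the highest saline library. The methionine sulfoxide reductase *Msra* (0.84 ± 0.20) and extracellular superoxide dismutase *Sod3* (0.80 ± 0.21) were also called. Members of the Ugt, Cyp2d and Gsta families share near-identical sequence, so counts may be split among them.

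Some genes of cholesterol synthesis and uptake were higher. Of 25 genes 9 were higher and 0 lower, 7 in each leave-one-out fit, with a median of 0.37. *Mvd*, which makes isopentenyl pyrophosphate, did not overlap (between 5.65 and 9.67 CPM (median 7.26) and between 10.3 and 16.4 CPM (median 13.7), log2 fold change 0.90, standard error 0.15, adjusted p = 0.00136). *Nsdhl* (0.75 ± 0.15) and *Cyp51* (0.73 ± 0.17), which remove methyl groups from lanosterol, were called as well.

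Among 30 nuclear receptors and tubule transcription factors 7 were higher (4 without saline replicate 3) and 0 lower (median 0.30), against 11.9% and 4.86% of all genes tested. *Hnf4a*, a nuclear receptor needed for the mature proximal tubule, ranged between 58.2 and 143 CPM (median 100.3) and between 141 and 272 CPM (median 209) (log2 fold change 1.06, standard error 0.20, adjusted p = 0.00300), with 7 of 8 MCC950 libraries above the saline range. *Rxra*, the partner of many nuclear receptors (0.40 ± 0.09), and *Esrra*, a receptor that acts on genes of oxidative metabolism (0.42 ± 0.10), rose less. Of 14 genes that are higher in the proximal tubule of males 5 were higher (8 without MCC950 replicate 7) and 0 lower (median 0.72), with *Slc22a30* (0.95 ± 0.25), *Slc22a28*, *Cyp7b1* and *Odc1* among them. Of 5 genes higher in females 0 were called in the edgeR fit, 2 were higher at an unadjusted p under 0.05 and 2 with DESeq2. *Kap*, the androgen-regulated kidney protein, had 0.61 ± 0.34 (adjusted p = 0.222).

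Promoter letters were read for the genes tested that had a window in the RefSeq promoter table (GRCm38.p6, 250 bases before to 50 after the first listed start), 12136 of 16377. Of 5 short motifs searched on both strands, chosen after the gene values were known, the HNF1 letters GTTAATNAT were in 22 of 1514 windows of genes called higher (1.45%), 2 of 601 of genes called lower (0.33%) and 74 of all 12136 (0.61%). They were in 0 of 15 windows of proximal tubule markers, 0 of 62 of nuclear respiratory chain subunits and 0 of 17 of cholesterol genes. Among the 10 largest rises, 1 of 7 windows held them. The HNF4 letters CAAAGTCCA were in 7 of 1514 (0.46%), 3 of 601 (0.50%) and 56 of 12136 (0.46%). The NRF1 letters GCGCATGCG were in 7 of 62 windows of nuclear respiratory chain subunits (11.29%), against 398 of 12136 (3.28%). The ESRR letters TCAAGGTCA were in 31 of 12136 (0.26%) and the SREBP letters CACCCCAC in 366 of 12136 (3.02%), with 1 of 17 windows of cholesterol genes. A match is only a run of letters in the window. Of the genes named here with the HNF1 letters 5 are shown, all called higher in each leave-one-out fit. Not every match was kept, so 5 is not a count of all named genes with these letters. These stretches are shown because windows of genes called higher held these letters more often than all windows did, which was not tested. Each is written 5′ to 3′ on the strand of the gene, with the match or its reverse complement in capitals.
Cdhr2: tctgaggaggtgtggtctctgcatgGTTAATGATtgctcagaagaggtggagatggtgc
G6pc: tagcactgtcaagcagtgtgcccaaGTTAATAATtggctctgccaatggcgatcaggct
Prodh2: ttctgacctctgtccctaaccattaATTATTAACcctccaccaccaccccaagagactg
Slc10a2: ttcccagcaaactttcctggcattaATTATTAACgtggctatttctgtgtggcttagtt
Sult1d1: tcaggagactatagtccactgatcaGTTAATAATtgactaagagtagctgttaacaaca

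On GRCm38.p6 the stretch of *Cdhr2* is chr13:54701384-54701442 on the plus strand, that of *G6pc* chr11:101367470-101367528 (plus), that of *Prodh2* chr7:30493506-30493564 (plus), that of *Slc10a2* chr8:5105474-5105532 (minus) and that of *Sult1d1* chr5:87569052-87569110 (minus). The match began 54 bases before the start of *Cdhr2*, 79 before that of *Sult1d1*, 127 before that of *Prodh2*, 220 before that of *Slc10a2* and 221 before that of *G6pc*. All 5 lie upstream of the first exon because only matches before the start were kept. The corresponding transcripts rose by 1.36, 1.07, 1.31, 1.69 and 0.99 on the log2 scale.

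Genes of the thick ascending limb and collecting duct were lower where they were called. Their counts, and those of the distal convoluted tubule, stand beside 11.9% of all genes tested called higher and 4.86% called lower. Of 16 genes of the thick ascending limb 5 were lower and 0 higher (median -0.32), 2 in each leave-one-out fit, and the number was 2 without MCC950 replicate 3, 4 or 8, 3 without MCC950 replicate 6 or 7 or saline replicate 6, and 8 without MCC950 replicate 2 or saline replicate 2 or under both other scalings. *Umod*, which encodes uromodulin, the main protein of normal urine, ranged between 1815 and 2437 CPM (median 2168) and between 937 and 2039.9 CPM (median 1545) (log2 fold change -0.56, standard error 0.15, adjusted p = 0.0156), with 7 of 8 MCC950 libraries below the lowest saline library. *Cldn19*, a claudin needed for magnesium reabsorption, ranged between 15.9 and 23.98 CPM (median 20.2) and between 5.36 and 17.7 CPM (median 10.9) (log2 fold change -0.86, standard error 0.24, adjusted p = 0.0194). *Casr*, the calcium-sensing receptor, and *Irx2* were also lower. *Slc12a1*, the furosemide-sensitive cotransporter, gave a value of -0.88 ± 0.27 (adjusted p = 0.0321), and lost the call without MCC950 replicate 3, 4 or 8 (highest adjusted p = 0.0612). Of 20 genes of the distal convoluted and connecting tubule 1, *Cnnm2*, was higher (0 without saline replicate 2 or 6, 2 without saline replicate 1 or 5 and 3 without MCC950 replicate 7), and *Slc12a3*, the thiazide-sensitive cotransporter, had 0.18 ± 0.13 (adjusted p = 0.358). Of 28 collecting duct genes 4 were lower and 0 higher (median -0.23), 2 without MCC950 replicate 4 or saline replicate 7 and 7 with scaling by the counts outside the mitochondrial genes. They were *Aqp4*, *Slc14a2*, *Nr3c2*, the mineralocorticoid receptor (-0.45 ± 0.12), and the sialyltransferase *St6gal1* (-0.46 ± 0.11), while the water channel *Aqp2* (-0.02 ± 0.27, adjusted p = 0.966) and the sodium channel subunit *Scnn1b* (-0.38 ± 0.18, adjusted p = 0.145) were not called.

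The 10 largest falls without overlap were those of *ATP8*, *ND4L*, *ND5*, *ND2*, *Igfbp3*, *Jam2*, *Esm1*, *Aoc1*, *Slc14a1* and *Scin*. *Igfbp3*, a carrier of insulin-like growth factors, ranged between 14.8 and 30.7 CPM (median 20.4) after saline and between 2.61 and 13.97 CPM (median 8.19) after MCC950 (log2 fold change -1.30, standard error 0.26, adjusted p = 0.00379). *Jam2*, a junctional adhesion molecule of endothelium, ranged between 7.81 and 13.1 CPM (median 10.9) and between 3.18 and 6.50 CPM (median 5.04) (log2 fold change -1.12, standard error 0.16, adjusted p = 5.80e-04), and *Esm1*, a proteoglycan secreted by endothelial cells, between 5.07 and 11.02 CPM (median 6.88) and between 2.49 and 4.23 CPM (median 3.60) (log2 fold change -1.06, standard error 0.16, adjusted p = 8.19e-04). Each MCC950 library was below each saline library for these 3 genes. *Aoc1*, a diamine oxidase (-1.05 ± 0.19), *Slc14a1*, a urea transporter (-0.98 ± 0.19), and *Scin*, an actin-severing protein (-0.92 ± 0.16), had medians of 3.67, 11.1 and 19.3 CPM after saline. Of 15 endothelial markers 7 were lower and 0 higher, 6 in each leave-one-out fit (median -0.32), including *Egfl7* (-0.62 ± 0.15) and *Plvap*, the diaphragm protein of fenestrae (-0.68 ± 0.17). The endothelial score was below the lowest saline library in 6 of 8 MCC950 libraries, but the summed CPM of these markers was so in 3 of 8 and exceeded the highest saline library in 1. In the IGF axis 3 of 17 were higher and 2 lower, against 11.9% and 4.86% of all genes tested. The growth factor *Igf2* (-0.78 ± 0.16) was lower beside *Igfbp3*, while *Igfbp7* (0.49 ± 0.12), *Igfbp4* and the growth hormone receptor *Ghr* were higher. The number higher was 1 without any one of MCC950 replicates 1, 2, 3 and 5 and saline replicates 2, 3, 4, 6 and 7, 5 without saline replicate 5, 6 without MCC950 replicate 7 and 1 under both other scalings.

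Of 29 heat shock and chaperone genes 16 were higher and 0 lower (median 0.24), with 8 higher without saline replicate 4 or 6 and 10 without saline replicate 1, 2 or 3. Scaling by the counts outside the mitochondrial genes gave 9 higher and 1 lower, upper quartile scaling 10 and 1, and DESeq2 15 and 1. *Hspa8*, the constitutive Hsp70, did not overlap (between 219 and 252 CPM (median 230.3) and between 269 and 404 CPM (median 339), log2 fold change 0.55, standard error 0.11, adjusted p = 0.00492), and the mitochondrial chaperonin *Hspd1* (0.59 ± 0.12) and the Hsp70 exchange factor *Hsph1* (0.64 ± 0.17) were called in each fit. *Hspa1a*, the inducible Hsp70, had -0.03 ± 0.28 (adjusted p = 0.954). Of 30 immediate early genes, which tissue dissociation is known to induce, 0 were higher and 1, *Egr2*, lower in the edgeR fit, against 2 and 2 at an unadjusted p under 0.05 and 1 and 1 with DESeq2. The lower call was lost without MCC950 replicate 1 or 5 or saline replicate 2, 3 or 4. *Fos* and *Jun* had -0.10 ± 0.13 and 0.09 ± 0.19 (adjusted p = 0.630 and 0.779).

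Of 20 circadian clock genes 4 were higher and 0 lower in the edgeR fit, against 11.9% and 4.86% of all genes tested, at a median of -0.18. *Npas2*, *Arntl* and *Nfil3* were among those higher. The counts were 5 and 5 at an unadjusted p under 0.05 and 4 and 2 with DESeq2. The number higher was 2 without any one of MCC950 replicates 3, 4 and 8 and saline replicates 1 to 4. Scaling by the counts outside the mitochondrial genes gave 2 higher and 2 lower. *Npas2*, an activator of the clock, ranged between 0.548 and 1.83 CPM (median 1.35) and between 1.52 and 10.4 CPM (median 3.53) (log2 fold change 1.78, standard error 0.40, adjusted p = 0.00730), and its partner *Arntl* between 1.55 and 3.62 CPM (median 2.83) and between 3.17 and 11.2 CPM (median 5.36) (log2 fold change 1.18, standard error 0.32, adjusted p = 0.0167). The highest value of *Npas2* was in MCC950 replicate 3. Targets of this pair had values in the other direction without passing the test. *Dbp*, a transcription factor of circadian output, ranged between 11.7 and 37.7 CPM (median 19.5) and between 1.51 and 23.3 CPM (median 8.05) (log2 fold change -1.16, standard error 0.55, adjusted p = 0.151), and *Per1*, a repressor of the clock, had -0.36 ± 0.13 (adjusted p = 0.0588). The hour of collection was not given in the sources used here, and its part in these values was not tested. In the contrast of saline with young libraries, which shares the saline libraries and is therefore no separate evidence, *Npas2* had -1.45, *Arntl* -1.40 and *Dbp* 1.44 on the log2 scale (adjusted p = 0.0160, 0.00492 and 0.0897).

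Of 26 genes of tubular and parietal injury 3 were higher (*Krt8*, *Fga* and *Fgg*) and 3 lower (*Lcn2*, *Krt19* and *Anxa1*), against 11.9% and 4.86% of all genes tested. Scaling by the counts outside the mitochondrial genes gave 1 higher and 5 lower, and upper quartile scaling 2 and 5. The higher calls were all lost without saline replicate 2, 3, 4 or 7, and 1 was left without MCC950 replicate 7. *Lcn2*, a lipocalin released by injured tubules and neutrophils, ranged between 4.26 and 9.40 CPM (median 6.75) and between 1.38 and 4.77 CPM (median 3.31) (log2 fold change -1.02, standard error 0.21, adjusted p = 0.00466) and was lower in each leave-one-out fit, while *Havcr1*, which encodes the injury marker KIM-1, had -0.05 ± 0.38 (adjusted p = 0.941). Of 29 matrix and fibroblast genes 0 were higher and 1, *Mgp*, was lower in the edgeR fit, against 2 and 6 at an unadjusted p under 0.05 and 0 and 4 with DESeq2. That call was lost without MCC950 replicate 4, 7 or 8 or saline replicate 5 or 7, and 2 were lower without MCC950 replicate 1, 5 or 6 or saline replicate 1 or 2. *Col1a1* had -0.96 ± 0.50 (adjusted p = 0.196) at medians of 1.34 and 0.716 CPM. Of 26 proliferation genes 0 were called in either direction by edgeR, by DESeq2 or at an unadjusted p under 0.05, and *Mki67* had -0.10 ± 0.23 (adjusted p = 0.806). Of 81 cytosolic ribosomal proteins 2 were higher (0 without saline replicate 4 and 1 without saline replicate 1, 3, 6 or 7), around a median of 0.05 that was -0.05 with scaling by the counts outside the mitochondrial genes. Of 46 lysosomal genes 7 were higher, again near the share of all genes, and 0 lower (3 without saline replicate 4 and 4 without MCC950 replicate 1 or 5 or saline replicate 3 or 7, and 4 higher and 1 lower with scaling by the counts outside the mitochondrial genes), among them the proton pump subunit *Atp6v0d1* (0.35 ± 0.07), the protease *Ctsl* (0.44 ± 0.11) and the fucosidase *Fuca1* (0.43 ± 0.10), around a median of 0.03 that was -0.06 with that scaling. *Lamp1* had 0.23 ± 0.09 (adjusted p = 0.0765).

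The calls were set beside the proximal tubule score by a fit with that score as a covariate, in which 397 genes were higher and 317 lower. Score and group went together, so this fit removes whatever both share, and the 18 genes that make up the score, which also occur in the transport and metabolism lists (*Miox*, *Pck1* and *Fbp1* for example), were set against themselves. Of 102 genes called and named by the rule, 37 kept the call. The list counts that follow stand beside the 397 and 317 of 16377 genes, not beside the 11.9% and 4.86% called without the covariate. Of the nuclear respiratory chain subunits 0 of 75 were then higher (median 0.11), of the amino acid enzymes 2 of 62 (median 0.02) and of the gluconeogenic genes 0 of 17 (median 0.10). Of the mitochondrially encoded proteins 0 of 13 were called, against 9 without the covariate, at a median of -0.68. In contrast, 5 of 25 cholesterol genes were higher (median 0.40), 9 of 29 chaperone genes were higher (median 0.35) and 6 of 16 thick ascending limb genes were lower (median -0.61). Of the clock genes 4 were higher (*Arntl*, *Clock*, *Nfil3* and *Npas2*) and 5 lower (*Dbp*, *Nr1d1*, *Nr1d2*, *Per3* and *Tef*). *Serpina1f* (1.96, adjusted p = 0.00630), *Mettl7a2* (1.25, 0.00396), *Acnat2* (1.36, 0.0152), *Slc16a1* (1.18, 0.00305) and *Gatm* (0.76, 0.00628) remained higher, and *Hnf4a* did so with a smaller fold change (0.41, 0.0139). *Igfbp3* (-1.78, 0.00301), *Jam2* (-1.31, 0.00239) and *Umod* (-0.77, 0.0182) remained lower. *Gpx3* (0.51, 0.132) was no longer called.

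**Figure D5:**
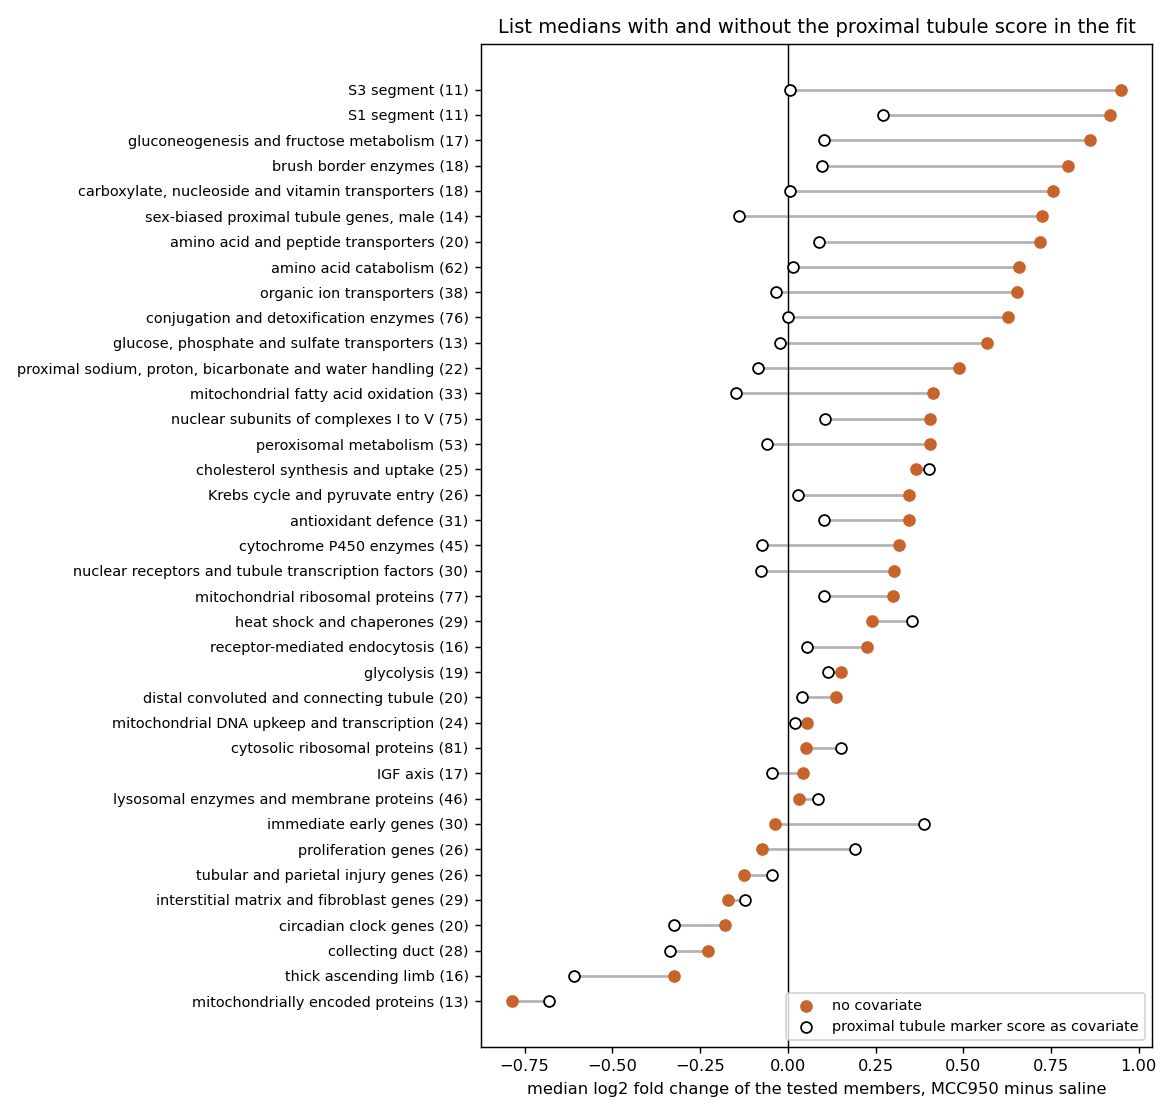
Median log2 fold change of the tested members of each list, MCC950 minus saline (x axis), without a covariate (filled) and with the proximal tubule marker score in the fit (open). The medians of the transport and metabolism lists lie between 0.30 and 0.95 without the score and between -0.15 and 0.27 with it. Exceptions are cholesterol synthesis, endocytosis, glycolysis, mitochondrial DNA upkeep and the mitochondrially encoded proteins (-0.79 without the score and -0.68 with it). The median of the thick ascending limb moves from -0.32 to -0.61.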

How the data were processed

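Messenger RNA of podocyte fractions was sequenced from TruSeq RNA libraries, 1 per mouse (how mRNA was selected was not given in the sources used here). The authors trimmed reads with TrimGalore, aligned them to mm10 (GRCm38) with Bowtie2, which does not align across splice junctions, and counted them per gene with featureCounts. Annotation release, strand and multi-mapping settings were not given in the sources used here. The deposited values used were raw counts per gene and library. The authors' normalized table was not used here.

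From these counts, genes passing filterByExpr (16377 of 27179) were fitted with edgeR 4.0.16 (R 4.3.3; TMM, quasi-likelihood test) over all 21 libraries, contrast MCC950 minus saline, with Benjamini-Hochberg adjustment over all genes tested and a threshold of 0.05. DESeq2 1.42.0, which the study used, was an alternative, as were other scalings, filters, samples and covariates and the omission of each library. Adjusted p-values in the text are from the edgeR fit unless named otherwise, a value after ± is its standard error on the log2 scale, and p-values cover the spread between mice. CPM were TMM-normalised. Depth and mitochondrial share were tested by exact two-sided permutation of the libraries (scipy 1.17.1). The test was also run on simulated counts drawn independently for each gene. These held no shift in cell types between groups, so that check does not bear on the proximal tubule score.

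Gene names came from RefSeq GRCm38.p6 (25275 genes) and GENCODE M21 (18), and 1886 genes had none. The gene lists, the motifs and the comparison itself were chosen with earlier results of these data known. Genes were named by this rule: anchor genes set with the lists; for each list, up to 3 members with the largest change among those called in the fit and in all 15 leave-one-out fits with a mean level of 1 log2 CPM or more; and the 10 largest rises and 10 largest falls of this kind without overlap between groups. Marker scores were mean log2 CPM with a prior count of 2. Total depth was between 35440472 and 84876399 counts per library. Some genes that the rule selects are not reported here.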

Additional observations from a re-analysis of the deposited data

Results flagged for a closer look

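Each of 280 groups of 7 or 8 values (genes named, marker sums and library shares) was examined for a highest or lowest library that stood far from the rest by Dixon's criterion at the 95% level. It marked 14, and chance marks about 1 group in 20. Saline replicate 5 was highest for *Slc6a19* at 83.1 CPM (others 17.6 to 42.0), *Slc7a7* at 41.1 CPM (14.6 to 25.4), *Ugt3a1* at 54.6 CPM (13.1 to 30.2), *Mettl7a2* at 3.71 CPM (1.45 to 2.26) and the summed red blood cell markers at 325 CPM (98.8 to 165). Saline replicate 1 was highest for *Tpi1* at 141 CPM (96.0 to 112), *Ndufs1* at 52.5 CPM (37.6 to 43.6) and *Slc22a28* at 21.3 CPM (10.2 to 15.02). These 2 saline libraries also had the highest summed proximal tubule markers of their group.

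Saline replicate 7 held the highest *ND5* level, 57967 CPM (others 27786 to 38768), and saline replicate 3 the highest *Havcr1* level, 3.09 CPM (1.11 to 1.91). In the MCC950 group, replicate 3 stood out for *Npas2* at 10.4 CPM (1.52 to 5.39) and replicate 2 for *Slc9a3* at 14.4 CPM (3.29 to 8.32). MCC950 replicate 2 also had the lowest share of mitochondrial ribosomal RNA, 0.362% of counts (0.636 to 0.874%), and replicate 8 the highest summed T and NK cell markers, 83.8 CPM (12.9 to 41.5).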

How the results depend on the processing

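Against 1957 higher and 796 lower, the counts were 397 and 317 with the proximal tubule score as a covariate, 1027 and 1817 with scaling by counts outside the mitochondrial genes, 1283 and 1271 with upper quartile scaling, and 275 and 169 at an edgeR p under 0.05 without adjustment plus a change above 2-fold. DESeq2 gave 1250 lower, and leaving out both MCC950 replicates 6 and 7 gave 2175 lower. Leaving out single libraries gave 1008 to 2392 higher and 515 to 1007 lower. Of 102 named and called genes, 102 kept the call with DESeq2, 99 with scaling by counts outside the mitochondrial genes, 96 with the podocyte covariate and 37 with the proximal tubule covariate. Of the 2753 genes called, 409 were shared in direction with the 714 called with that covariate and 1823 with the 2844 called under scaling outside the mitochondrial genes. The difference in mitochondrial share stayed between -14.3 and -11.6 percentage points when 1 library was left out (exact permutation test, p from 0.000583 to 0.00133), and the difference in counts outside the mitochondrial genes kept its direction and its side of the threshold. Without mitochondrial genes in the table, their lists could not be fitted.

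Replicate numbers are shared between the groups, but no source says that they pair mice. The deviations of same-numbered libraries correlated from -0.14 to 0.33, and a replicate block gave 2381 higher and 904 lower and kept 100 of 102 named calls.

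With the proximal tubule score as a covariate the log2 fold change changed sign for *Ass1* (-0.28), *Ggt1* (-0.15), *Slc13a3* (-0.32, adjusted p = 0.0389), *Ugt3a1* (-0.19), *Cyp2e1* (-0.21), *Hspa1a* (0.53), *Fos* (0.19), *Tfam* (-0.12), *Ndufs1* (-0.016), *Slc22a6* (-0.45), *Mki67* (0.29) and *Kap* (-0.59). With the podocyte score it did so for *Jun* (-0.071) and *Havcr1* (0.38), and with the replicate block for *Jun* (-0.026). Scaling outside the mitochondrial genes turned *Pkm* (-0.048), *Jun* (-0.0032) and *Tfam* (-0.046), upper quartile scaling turned *Pkm* (-0.0081) and *Tfam* (-0.0068), and thinning turned *Tfam* (-0.026). Without MCC950 replicates 6 and 7, *Aqp2* had 0.12 and *Pkm* -0.0036. Leaving out single libraries gave ranges of -0.16 to 0.073 for *Aqp2*, -0.19 to 0.045 for *Hspa1a*, -0.014 to 0.074 for *Tfam*, -0.20 to 0.091 for *Mki67* and -0.24 to 0.17 for *Havcr1*. The causes of these changes were not tested. Of these genes, *Ggt1*, *Slc13a3*, *Slc22a6* and *Kap* are themselves part of the proximal tubule score.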

Other observations

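Set beside the contrast of saline with young libraries, which shares the 7 saline libraries and is therefore no separate evidence, some genes had values of opposite sign and others of the same sign. *Lcn2* had 1.09 with age (adjusted p = 0.00203) and -1.02 with MCC950 (adjusted p = 0.00466), and *Aoc1* had 0.79 with age (adjusted p = 0.00766) and -1.05 with MCC950 (adjusted p = 0.00177). *Serpina1f* had 1.39 with age (adjusted p = 0.0267) and 2.73 with MCC950 (adjusted p = 3.65e-04), higher in both. All values are log2 fold changes of the edgeR fit.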
